A study of Rattus norvegicus with 18 samples.

Results

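Transcripts of 7 scaffold genes of the postsynaptic density were followed in rat cortical cultures during glutamate excitotoxicity. The genes are Dlg2, Dlg3, Dlg4, Shank1, Shank2, Shank3 and Dlgap1, and they were taken by name from the 31463 rows that every library lists. RNA was sequenced from primary neuroglial cultures of the cerebral cortex of newborn Wistar rats, which the study treated with cytosine arabinoside to limit the growth of glia, so that all groups share this agent. The 18 libraries form 6 groups of 3, each taken on day 10 in vitro. Control cultures received no glutamate. Glutamate cultures received 100 µM glutamate, and RNA was collected 4 h after the model. Memantine cultures, the positive control, received glutamate together with 100 µM memantine, a blocker of NMDA receptors. Glutamate_vesicles cultures received extracellular vesicles of glial progenitor cells the day before glutamate. Glutamate_secret and Glutamate_BPC cultures received 1 of the other secreted preparations, the proteins of 3 to 100 kDa or the total secretome, and the labels do not settle which group received which. The study describes repeating its experiments on unrelated cultures, but neither it nor the labels tie the replicate numbers of these libraries to cultures or days, so the p-values measure the spread between these samples, which may be technical.

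The postsynaptic density is the protein sheet beneath the membrane of an excitatory synapse. In its upper layer the Dlg proteins bind the tails of NMDA receptors and of AMPA receptor auxiliary subunits through PDZ domains. Dlgap1 proteins bind the guanylate kinase-like domain of the Dlg proteins and, at their other end, the PDZ domain of Shank proteins, which sit in the deeper layer and reach Homer and the actin cytoskeleton. The same Dlg proteins hold signalling enzymes such as neuronal nitric oxide synthase near the NMDA receptor, which places them in the path of calcium entry during excitotoxicity.

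All 7 genes had counts in every library, from 5 counts of Dlg2 in Control 1 to 2941 counts of Dlg4 in Memantine 2, and all passed the filter on low counts. Levels are given as CPM, the counts of a gene set against a fixed library size after edgeR's TMM scaling, and levels of different genes were not compared, because CPM does not account for transcript length. Library totals ranged from 8409574 to 17206354 counts, and ribosomal RNA (rRNA) took from 3.04% to 43.0% of them, the highest share in Control 1. Neurons were present by their markers, since all 10 neuron markers had counts in every library, with a summed level from 519 to 3446 CPM. Markers of astrocytes summed to between 3211 and 13078 CPM, of the oligodendrocyte lineage to between 171 and 998 CPM, and of microglia to between 19.9 and 483 CPM. Fibroblast and mural markers summed to at most 19.5 CPM, with Dcn at 0 in 12 libraries and Rgs5 in 16, and endothelial markers to at most 3.80 CPM. In bulk RNA, fewer cells of a type and less RNA per cell cannot be told apart.

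Glutamate was compared with Control to ask how the scaffold transcripts stood after the insult. All 7 were lower on average in Glutamate, by a median of -1.41 on the log2 scale, while the median of all 14398 genes tested was 0.08. The direction was the same for each of the 7 under every alternative tried. None of the 7 was called by the quasi-likelihood test of edgeR at a Benjamini-Hochberg adjusted p below 0.05, nor was any other gene (0%). Dlg4 and Dlgap1 had an unadjusted p below 0.05 (2 of 7), against 5.97% of all genes that were lower at this level. The absence of calls over all genes depends on the model. With a term for the replicate number (a block), which does not pair all of these libraries, 166 of 14398 genes were called, and none of the 7. The study used a likelihood-ratio test, and its results state a p-value below 0.05 with a limit on the fold change, an unlike threshold. It reported significantly changed genes between intact and glutamate cultures, and for memantine and for vesicles against glutamate. Among genes lower with vesicles it listed terms of synapse organisation and the glutamatergic synapse.

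Among the Dlg genes, Dlg4, which encodes the most studied scaffold of the excitatory synapse, was measured at 45.4, 141 and 120 CPM in Control 1, 2 and 3 and at 28.7, 51.3 and 37.9 CPM in Glutamate. Only Control 1 lay within the Glutamate range, and the fitted difference was -1.38 ± 0.58 (SE; adjusted p = 0.527). Dlg2, a close relative that also binds NMDA receptors, was at 1.43, 12.4 and 11.7 CPM in Control and at 2.45, 4.51 and 1.46 CPM in Glutamate. Control 1 was the lowest of these 6 libraries for Dlg2, although the other Control libraries stood highest, and the difference was -1.61 ± 0.97 (adjusted p = 0.81). Dlg3, the X-linked member of the family, was at 7.99, 36.6 and 29.5 CPM in Control and at 2.84, 16.3 and 5.25 CPM in Glutamate. Here too the ranges overlapped through Control 1, and the difference was -1.60 ± 1.05 (adjusted p = 0.866).

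Dlgap1, the linker between the Dlg and Shank layers, was at 185, 118 and 71.3 CPM in Control and at 45.5, 64.4 and 52.2 CPM in Glutamate. The groups did not overlap, and Dlgap1 had the smallest p of the 7 (difference -1.21 ± 0.42, adjusted p = 0.399, edgeR). In contrast to the Dlg genes, its highest Control value was that of Control 1. The TMM factor was 0.417 for Control 1, against 1.37 and 1.42 for Control 2 and 3. Per total count, rRNA included, Dlgap1 in Control 1 (649 of 8409574) stood below Control 3 (1324 of 13089971) and Glutamate 2 (1015 of 10406915). On that scale the groups overlapped and Control 1 was not the highest Control library. That denominator includes the rRNA, which took 43.0% of the counts of Control 1. The parts of TMM and of rRNA in the separation were not tested.

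Of the Shank genes, which encode the deep scaffolds, Shank2 was at 19.7, 35.6 and 33.4 CPM in Control and at 8.52, 17.5 and 7.30 CPM in Glutamate. All 3 Control libraries lay above all 3 Glutamate libraries, with a difference of -1.41 ± 0.68 (adjusted p = 0.634). Shank1 was at 22.8, 70.7 and 61.9 CPM in Control and at 15.4, 24.9 and 14.3 CPM in Glutamate, a difference of -1.51 ± 0.75 (adjusted p = 0.654), and the ranges overlapped between Control 1 and Glutamate 2. Shank3 was at 5.996, 27.5 and 29.7 CPM in Control and at 4.26, 20.1 and 7.39 CPM in Glutamate. It had the smallest difference of the 7, -0.998 ± 0.98 (adjusted p = 0.988), with overlapping groups. Thus 2 of 7 genes, Shank2 and Dlgap1, were separated downward, where 7.76% of all genes were. Per total count, rRNA included, Shank2 was not separated either, since Control 1 (69 of 8409574) stood below Glutamate 2 (276 of 10406915). None of the 7 was called by DESeq2 or by edgeR's likelihood-ratio test either. The number with an unadjusted p below 0.05 rested on single libraries: it was 4 without Control 1 (against 5.74% of all genes lower at this level), and 1 without Control 2 (4.52%), Control 3 (5.29%), Glutamate 1 (5.43%) or Glutamate 3 (3.48%).

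**Figure D1:**
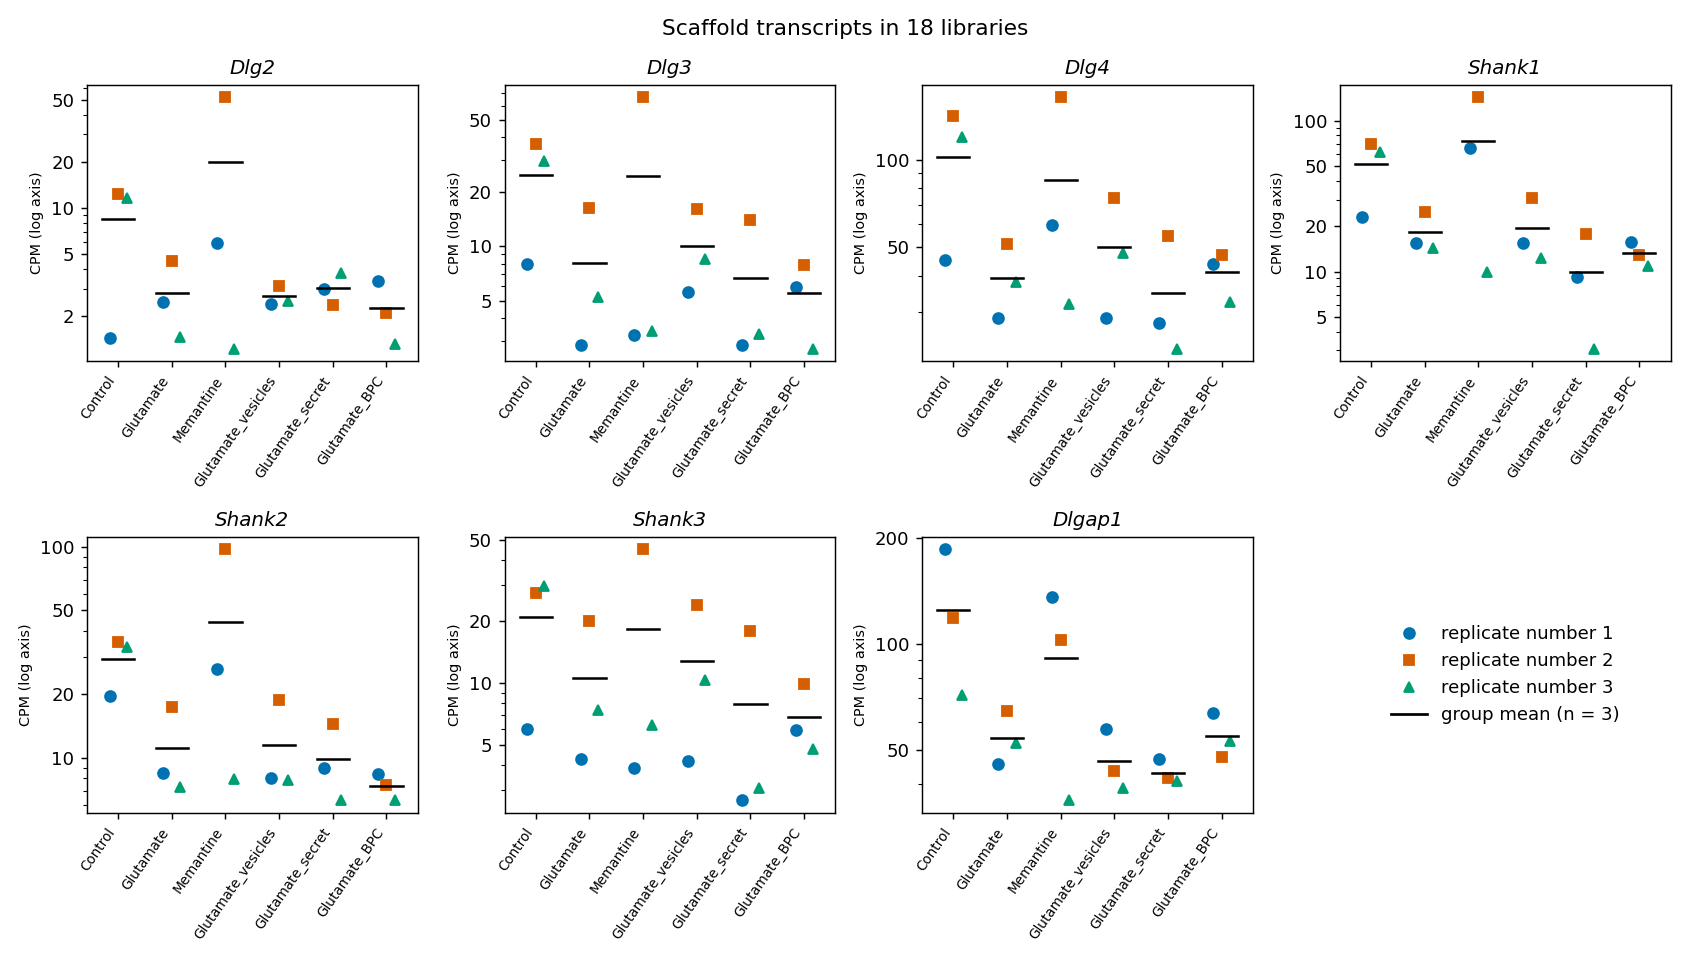
CPM of each scaffold gene (log axis) in the 18 libraries, by group; symbols mark the replicate number of the labels and bars the group mean (n = 3). Dlg4 in Control 2 and 3 stood at 141 and 120 CPM with Control 1 at 45.4 CPM, and for all 7 genes Memantine 3 lay far below Memantine 2.

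Memantine cultures were compared with Glutamate cultures to ask whether blocking NMDA receptors was accompanied by other scaffold levels. All 7 genes were higher on average in Memantine, with fitted differences from 0.75 for Dlgap1 to 2.80 for Dlg2 and a median of 1.58, against -0.02 over all genes. With the rRNA share in the model Shank3 turned to -0.50, while the other 6 stayed higher. None was called (0% of all genes, smallest adjusted p of the 7 = 0.627, edgeR), nor by DESeq2 or the likelihood-ratio test. Dlg2, Shank1 and Shank2 (3 of 7) had an unadjusted p below 0.05, where 4.88% of all genes were higher at this level. By the correlation rule given with the processing, the replicate numbers paired these libraries, although no label ties them to cultures. With the block, fitted over all 18 libraries, none of the 7 was called, nor was any other gene. Dlg2, Dlg4, Shank1 and Shank2 (4 of 7) were then higher at an unadjusted p below 0.05, where 1156 of 14398 genes passed in either direction.

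For 6 of the 7 genes, all except Dlgap1, the SD was larger in Memantine than in any other group. Shank1 was at 66.0, 143 and 9.99 CPM in Memantine 1, 2 and 3, so that the first 2 values lay above the Glutamate maximum of 24.9 CPM and that of Memantine 3 below the Glutamate minimum of 14.3 CPM. Shank2 was at 26.4, 97.5 and 7.98 CPM, and Dlg4 at 59.7, 163 and 31.9 CPM, with the same order of the 3 libraries. Dlg2 was at 5.91, 52.1 and 1.22 CPM, and its difference of 2.80 ± 1.01 was carried by Memantine 2. Dlgap1 differed from these in that Memantine 1 was the highest, at 136 CPM, before 102 and 35.9 CPM in Memantine 2 and 3. For Dlg3 (3.22, 66.5 and 3.38 CPM) and Shank3 (3.87, 45.0 and 6.25 CPM) only Memantine 2 stood above the Glutamate libraries.

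No gene of the 7 had Memantine above Glutamate without overlap (0 of 7, against 1.74% of all genes), and Memantine 3 lay within or below the Glutamate range for each. Without Memantine 3, Shank2 was called (2.46 ± 0.58, adjusted p = 0.0485), 1 of 7 where 1.73% of all genes were called. In that fit 5 of 7 had an unadjusted p below 0.05, against 8.49% of all genes that were higher at this level. Without Memantine 2 this number was 0 (3.22%) and the differences of Dlg3 and Shank3 turned to -1.31 and -1.07, and without Glutamate 3 it was 1 (2.66%). With Control 1 and Memantine 3 both left out, a choice made after seeing the data, Dlg2 (3.38 ± 0.73, adjusted p = 0.03), Shank1 (2.53 ± 0.60, 0.0449) and Shank2 (2.49 ± 0.59, 0.0449) were called, 3 of 7 against 2.61% of all genes. The neuron markers were also lowest in Memantine 3. Their mean was 6.94, 7.02 and 4.54 log2 CPM in Memantine 1, 2 and 3, while the Glutamate libraries lay between 4.86 and 5.66. The part of neuronal content in the Memantine values was not tested.

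**Figure D2:**
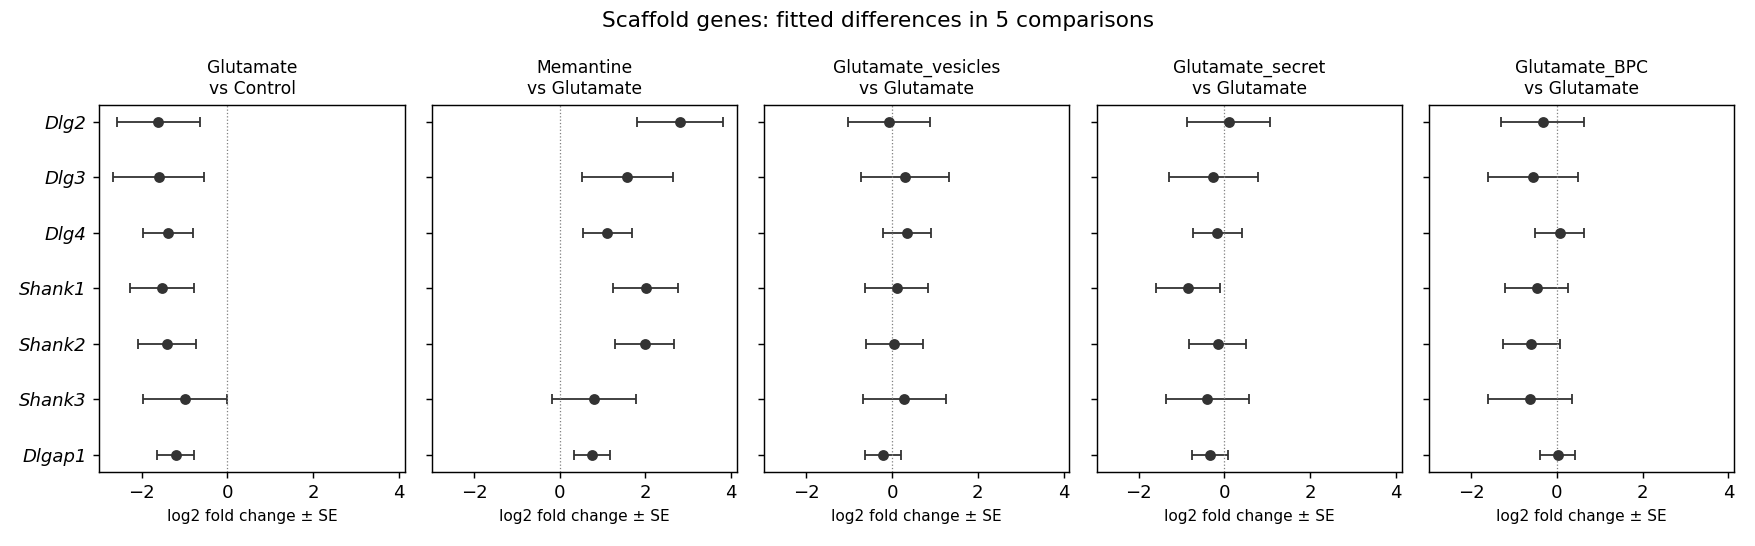
Fitted log2 fold changes of the scaffold genes with their SE (edgeR quasi-likelihood fit over 18 libraries) in 5 comparisons. All 7 points lie below 0 for Glutamate against Control and above 0 for Memantine against Glutamate, and the points of the 3 preparations against Glutamate lie between -0.85 and 0.35.

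The vesicles and the other secreted preparations were each compared with Glutamate alone. Vesicle cultures held Dlg4 at 28.5, 73.7 and 47.7 CPM, which gave a difference of 0.35 ± 0.57 from Glutamate, and Shank2 at 8.08, 18.8 and 7.82 CPM, a difference of 0.06 ± 0.67. Over the 7 genes the vesicle differences ran from -0.22 for Dlgap1 to 0.35 for Dlg4. Glutamate_secret differences ran from -0.85 for Shank1 to 0.10 for Dlg2, and Glutamate_BPC differences from -0.63 for Shank3 to 0.07 for Dlg4. Shank1 was at 9.14, 17.7 and 3.08 CPM in Glutamate_secret, and Glutamate_secret 3 was the lowest of all 18 for this gene. The ranges of every gene overlapped with Glutamate for all 3 preparations. Few of all genes were separated either: 2.89% upward and 3.38% downward with vesicles, 1.4% and 2.01% with Glutamate_secret, and 2.88% and 4.24% with Glutamate_BPC. The overlap is thus not a trait of the 7 genes. None of the 7 was called for any preparation by edgeR, by its likelihood-ratio test or by DESeq2 (0% of all genes in each edgeR comparison, adjusted p = 1 for all 7). None had an unadjusted p below 0.05, against 1.08%, 0.681% and 1.07% of all genes with vesicles, Glutamate_secret and Glutamate_BPC. The SE of these differences ran from 0.42 for Dlgap1 to 1.04 for Dlg3, so that the size of difference that could be detected varied by gene. By the correlation rule the replicate numbers paired Glutamate_secret and Glutamate_BPC with Glutamate. With the block none of the 7 was called or had an unadjusted p below 0.05 there, where 466 and 486 of 14398 genes passed the latter.

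Against Control, the preparations can be set beside Glutamate, with the limit that all these comparisons share the same Control libraries. The levels of Control 1 also rest on its TMM factor of 0.417. Memantine differed from Control by between -0.45 for Dlgap1 and 1.19 for Dlg2, with 4 genes lower and 3 higher. None was called by edgeR, by its likelihood-ratio test or by DESeq2 (0%), and none had an unadjusted p below 0.05 (1.12% of all genes did). The sign for Dlg3 (-0.03) was lost with another normalization, where it was 0.04. With vesicles all 7 were lower than in Control, by -0.72 for Shank3 to -1.69 for Dlg2. Shank2 and Dlgap1 did not overlap with Control (2 of 7, against 9.83% of all genes), and none was called (0.0139% of all genes), while 1 of 7, Dlgap1, had an unadjusted p below 0.05 (7.61% of all genes were lower at this level). Dlgap1 was at 57.2, 43.5 and 39.0 CPM with vesicles (-1.42 ± 0.43, adjusted p = 0.221). By the correlation rule the replicate numbers paired these libraries (lowest r = 0.21), so the block is given as well. It was fitted over all 18 libraries, including those that the rule does not pair. Dlgap1 was then called at -1.36 ± 0.35 (adjusted p = 0.0418), 1 of 7 where 3.74% of all genes were called. DESeq2 also called Dlgap1 (adjusted p = 0.0435), and 3.4% of all genes with it.

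Glutamate_secret was lower than Control by -1.39 for Shank3 to -2.36 for Shank1. None of the 7 was called (0%), 4 had an unadjusted p below 0.05 (against 7.61% of all genes), and Shank1, Shank2 and Dlgap1 did not overlap with Control (3 of 7, against 9.07%). DESeq2 called Dlgap1 (adjusted p = 0.0322) and 3.08% of all genes, and the likelihood-ratio test none of the 7. Once the rRNA share (log2) entered the model, edgeR called Dlg4, Shank1 and Shank3 (adjusted p = 0.0299, 0.0306 and 0.0496), 3 of 7 against 4.04% of all genes. Glutamate_BPC was lower by -1.19 for Dlgap1 to -2.16 for Dlg3, with none called (0%, also 0 by the likelihood-ratio test and DESeq2). Of these 7, 4 had an unadjusted p below 0.05 (against 7.42%), and Dlg3, Shank1, Shank2 and Dlgap1 did not overlap with Control (4 of 7, against 12.7%). Shank2 spread little there, at 8.42, 7.44 and 6.29 CPM, against 19.7 CPM in the lowest Control library.

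When all 6 groups were ranked by their mean, Control or Memantine held the first and second places for each of the 7 genes. For Dlg4 the order was Control (102 ± 50.3 CPM, SD, n = 3), Memantine (85.0 ± 69.3), Glutamate_vesicles (49.97 ± 22.7), Glutamate_BPC (41.2 ± 7.64), Glutamate (39.3 ± 11.4) and Glutamate_secret (34.9 ± 17.3). For Dlgap1 it was Control (125 ± 57.3), Memantine (91.2 ± 50.7), Glutamate_BPC (54.7 ± 8.19), Glutamate (54.0 ± 9.62), Glutamate_vesicles (46.6 ± 9.49) and Glutamate_secret (43.1 ± 3.38). Of the 35 pairs of neighbours in these orders, 34 overlapped. The exception was Shank2 between Control (29.6 ± 8.64) and Glutamate_vesicles (11.6 ± 6.25).

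An F test of edgeR for any difference among the 6 groups called none of the 7 (smallest adjusted p = 0.246), where 0.00695% of all genes were called. Dlg2, Shank1, Shank2 and Dlgap1 had an unadjusted p below 0.05, 4 of 7 against 7.75% of all genes. The likelihood-ratio test called Dlg2, Shank1 and Shank2 (adjusted p = 0.024, 0.00682 and 0.00996), 3 of 7 where it called 4.08% of all genes. DESeq2 called these and Dlgap1 (adjusted p = 0.0346 for Dlgap1), 4 of 7 against 4.99% of all genes. Shank1 was also called with the rRNA share as a covariate (adjusted p = 0.0417), and the other 3 were not, where 2.67% of all genes were called.

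The libraries were also compared by the replicate number of the labels. With group in the model, 5 of 7 (Dlg3, Dlg4, Shank1, Shank2 and Shank3) differed between numbers at an adjusted p below 0.05 (edgeR), and so did 60.4% of all genes, so that the share was close to the background. Number 2 was above number 1 by 2.36 on the log2 scale for Shank3, 2.25 for Dlg3 and 1.05 for Dlg4, and Dlg3 and Dlg4 were highest in number 2 in 6 of 6 groups. Dlg2 (adjusted p = 0.227) and Dlgap1 (adjusted p = 0.0747) did not pass. Dlgap1 was highest in number 1 in 5 of 6 groups, and its number 2 libraries stood 0.28 below those of number 1 on the log2 scale. The number 2 libraries held 3.04% to 8.15% rRNA, and those of number 1 held 13.4% to 43.0%. With the log2 rRNA share in the model as well, none of the 7 was called between numbers, where 0.472% of all genes were.

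**Figure D3:**
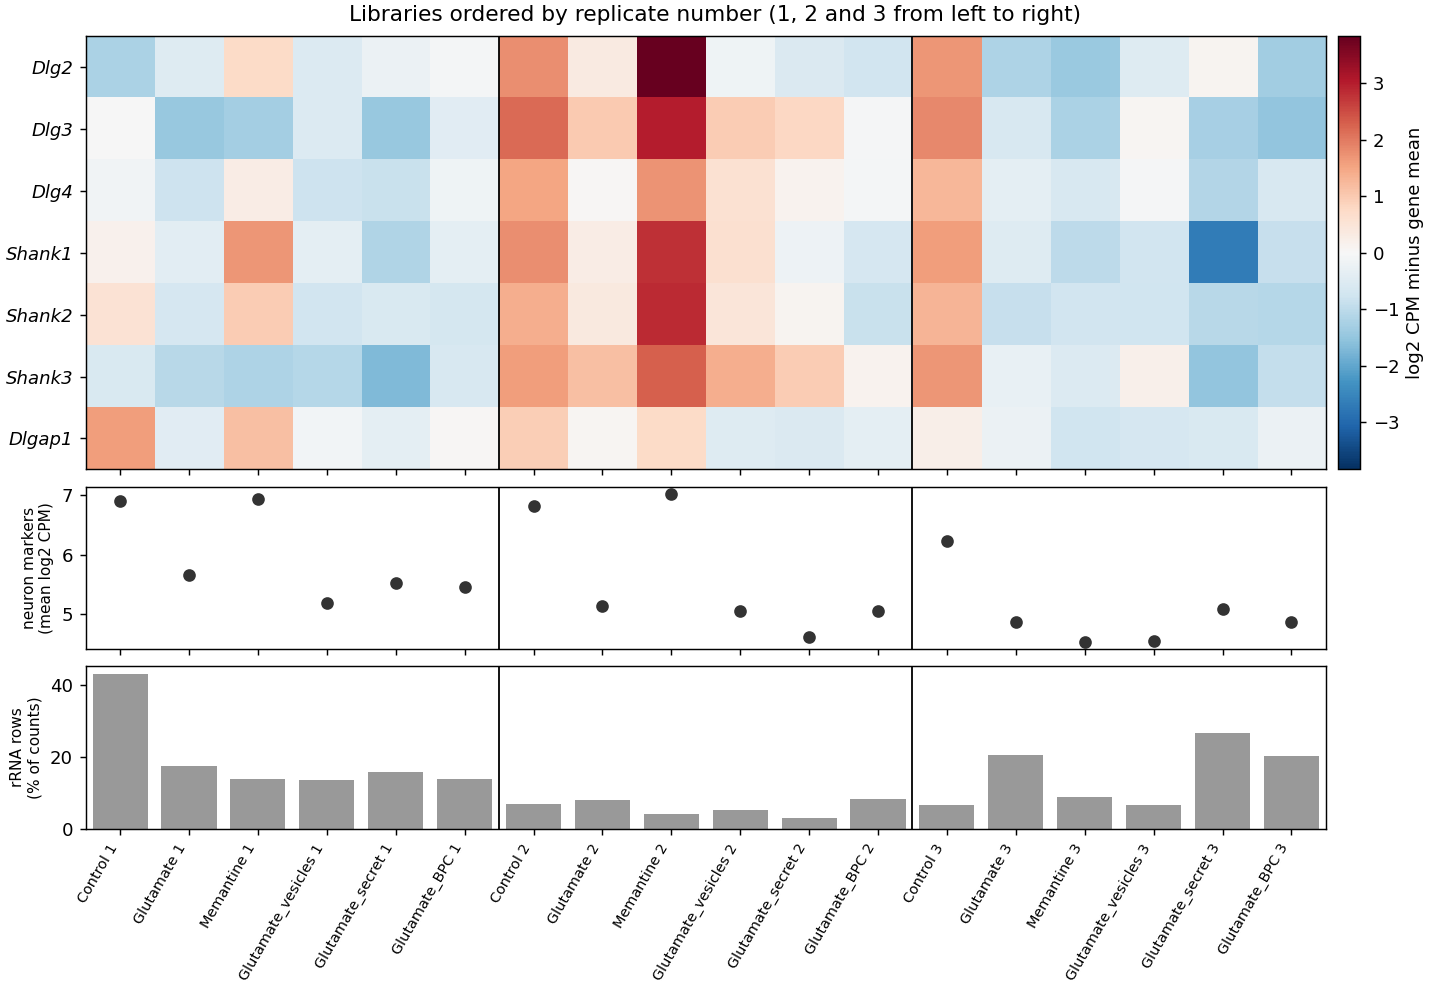
Top, log2 CPM of each scaffold gene minus its mean over the 18 libraries (colour scale); middle, mean log2 CPM of 10 neuron markers; bottom, rRNA as a percentage of counts; libraries are ordered by replicate number. Control 1 had 43.0% rRNA and was high in neuron markers (6.91 log2 CPM) and in Dlgap1, yet not in Dlg2 (1.43 CPM).

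Because neurons carry these synapses, each gene was also set against the neuron markers of its own library, as a description without a test. In Glutamate the mean of the neuron markers was lower than in Control by -1.43 on the log2 scale, and the differences of the 7 scaffolds on the same scale ran from -0.97 to -1.69. All 10 markers were lower (median -1.52), 6 with an unadjusted p below 0.05, against 5.97% of all genes lower at this level. The markers were not alike, from -2.92 for Slc17a7 and -2.15 for Snap25 to -0.77 for Rbfox3 and -0.07 for Map2. Their summed level was 2113 to 2855 CPM in Control and 628 to 1207 CPM in Glutamate. Of the other lists, 7 of 8 astrocyte markers (median 0.65), 6 of 7 oligodendrocyte markers (0.60), 6 of 6 microglia markers (1.02) and 2 of the 3 tested fibroblast and mural markers (0.57) were higher in Glutamate, none with an unadjusted p below 0.05, while the only tested endothelial marker, Pecam1, was lower (-2.04), with an unadjusted p below 0.05 and all 3 Glutamate libraries below all 3 of Control.

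Relative to the neuron markers, the 7 scaffolds differed between Glutamate and Control by only -0.25 for Dlg3 to 0.46 for Shank3. Dlg4 lay at -0.14 ± 1.11 (SD, n = 3) relative to the markers in Control and at 0.04 ± 0.74 in Glutamate, and Shank2 at -1.81 ± 0.73 and -1.84 ± 0.78. In Memantine the relative differences from Glutamate ran from -0.68 for Shank3 to 0.55 for Dlg2. With vesicles all 7 were above Glutamate on this scale, from 0.07 for Dlgap1 to 0.82 for Dlg3, each within 1 SD of the more variable group. The marker mean itself was lower with vesicles by -0.29, which raises every relative value. The log2 CPM differences of the 7 ran from -0.22 for Dlgap1 to 0.53 for Dlg3. The replicate number stayed visible here, since Dlg4 and Shank3 were lowest in number 1 in 6 of 6 groups. Dlgap1 spread least, with an SD of 0.38 over the 18 libraries, and Shank3 most, with 1.33.

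**Figure D4:**
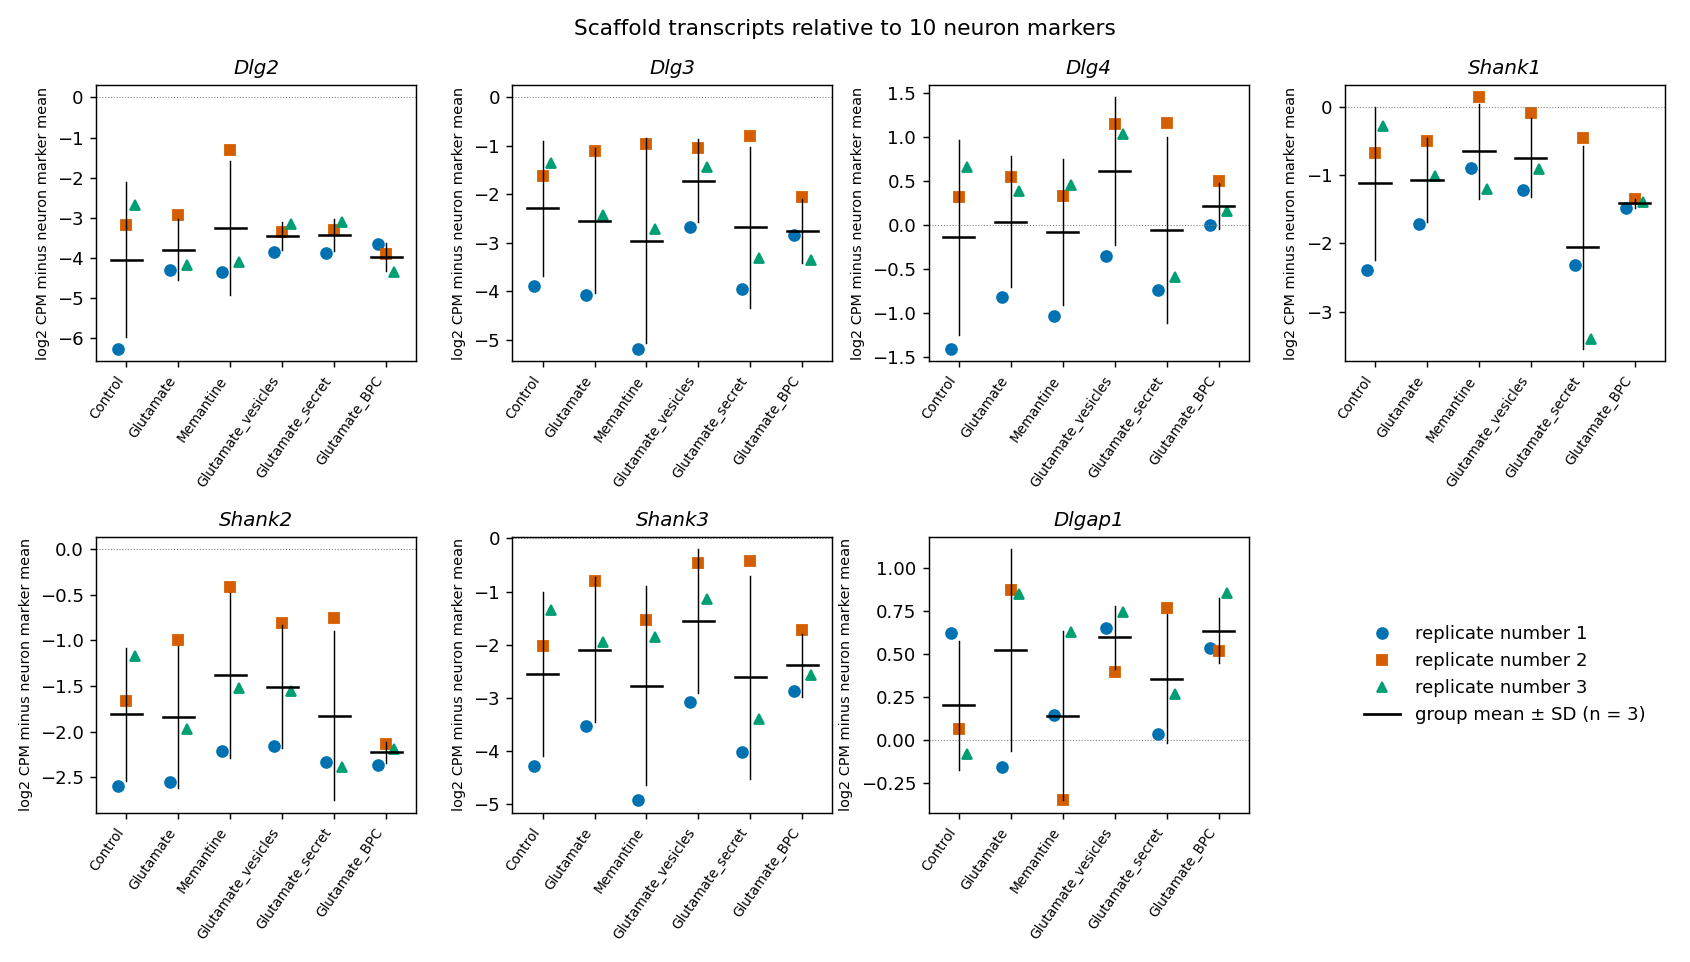
Log2 CPM of each scaffold gene minus the mean log2 CPM of 10 neuron markers in the same library, by group; bars show the mean ± SD (n = 3). The Control and Glutamate libraries overlap for all 7 genes, and Dlg4 and Shank3 have their lowest value in number 1 of every group.

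Other proteins of the same structure were examined as lists. Of 30 other scaffolds and adaptors, all tested, 25 were lower and 5 higher in Glutamate than in Control (median -0.63). Of the lower ones 6 had an unadjusted p below 0.05, where 5.97% of all genes were lower at this level, but none was called. The smallest p-values belonged to Akap5, an anchor of protein kinase A (-1.81 ± 0.59), and Grip2, an AMPA receptor binding protein (-1.43 ± 0.54). Of 23 receptors, adhesion proteins and enzymes held by the scaffolds, 21 were lower (median -1.48), and none was called. An unadjusted p below 0.05 was found for 7 of these partners, against the same 5.97% of all genes. They were led by LRRTM1, a synaptic adhesion protein (-2.27 ± 0.40, adjusted p = 0.261, edgeR), Camk2b, a subunit of the calcium/calmodulin-dependent kinase (-1.69 ± 0.53), and Cacng3, an AMPA receptor auxiliary subunit (-2.12 ± 0.70).

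Between Memantine and Glutamate, 27 of the 30 other scaffolds were higher (median 0.78), 6 with an unadjusted p below 0.05. All 23 receptors and partners were higher (median 1.53), 9 with an unadjusted p below 0.05. Of all genes, 4.88% were higher at this level. None was called. Cnksr2 (2.16 ± 0.74), Dlgap3, a relative of Dlgap1 (1.33 ± 0.46), and Akap5 (1.69 ± 0.59) led the scaffolds. LRRTM1 (1.57 ± 0.39), Grin1, the obligatory NMDA receptor subunit (2.11 ± 0.62), and Camk2b (1.56 ± 0.53) led the partners. The Memantine libraries of LRRTM1 all lay above its Glutamate libraries, at 8.55 to 26.7 CPM against 5.17 to 6.79 CPM. This held for 1 of the 23 partners and 0 of the 30 scaffolds, where 1.74% of all genes were separated upward.

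**Figure D5:**
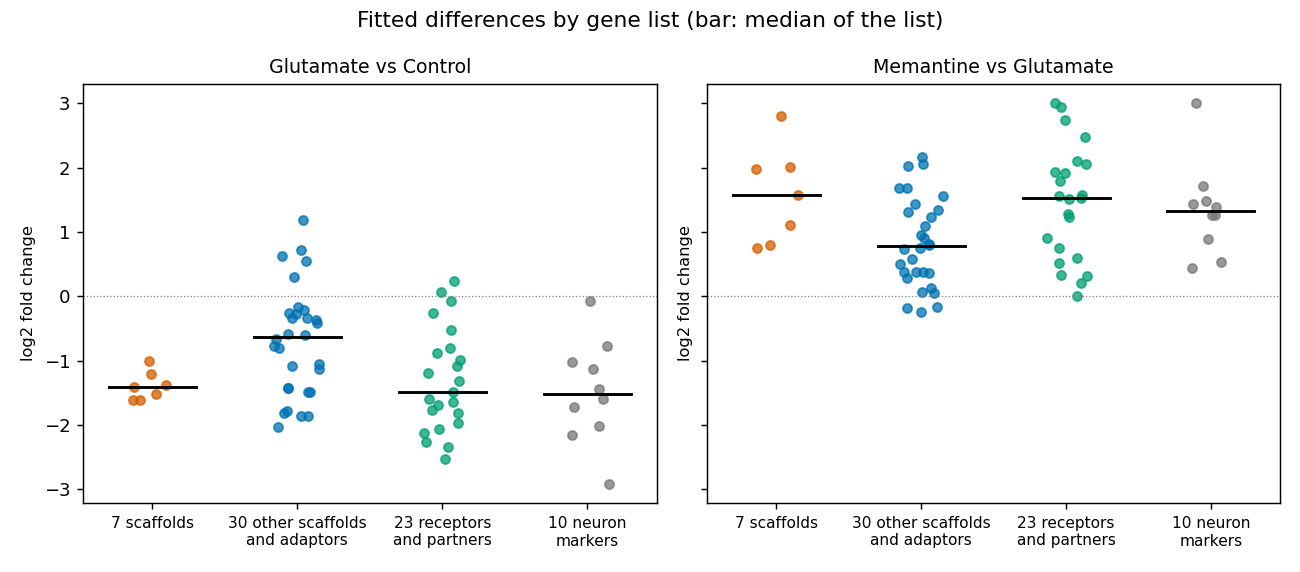
Fitted log2 fold changes of single genes (points) for the 7 scaffolds, 30 other scaffolds and adaptors, 23 receptors and partners and 10 neuron markers; the bar is the median of a list. In Glutamate against Control the medians were -1.41, -0.63, -1.48 and -1.52, and in Memantine against Glutamate 1.58, 0.78, 1.53 and 1.33.

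The 7 genes did not vary as one unit. Across the 18 libraries, which share the depth and rRNA differences given above, Pearson r of log2 CPM was 0.95 between Dlg3 and Shank3, 0.92 between Shank1 and Shank2 and 0.90 between Dlg4 and Shank1. Dlgap1 stood apart, with r from 0.19 with Shank3 to 0.67 with Shank1. Centred within replicate numbers, the r of Dlgap1 with Shank3 was 0.47 and with Dlg4 0.70. The profiles most like that of Dlg4 among all tested genes included Islr2 and Brsk1 (r = 0.98 each, 18 libraries). Those most like the mean standardised profile of the 7 included Gprasp1 and Met (r = 0.98 each).

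Promoter sequences are shown for Dlg4 and Shank3, which varied together (r = 0.88), and for Dlgap1, whose r with them was 0.51 and 0.19. They are RefSeq windows of the assembly GRCr8, another build than that of the counts, from 250 bases before to 50 bases after an annotated start, all on the plus strand. The table held windows for 4 of the 7 genes, with a second start for Dlgap1. Capitals mark the only match to any of the searched motifs.
Dlg4 (chr10:55239534-55239833): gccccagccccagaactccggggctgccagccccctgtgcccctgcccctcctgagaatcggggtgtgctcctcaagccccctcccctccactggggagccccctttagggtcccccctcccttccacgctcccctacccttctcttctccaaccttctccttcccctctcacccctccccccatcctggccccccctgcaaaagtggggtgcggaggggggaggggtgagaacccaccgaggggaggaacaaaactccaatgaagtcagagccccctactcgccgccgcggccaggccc
Shank3 (chr7:122448073-122448372): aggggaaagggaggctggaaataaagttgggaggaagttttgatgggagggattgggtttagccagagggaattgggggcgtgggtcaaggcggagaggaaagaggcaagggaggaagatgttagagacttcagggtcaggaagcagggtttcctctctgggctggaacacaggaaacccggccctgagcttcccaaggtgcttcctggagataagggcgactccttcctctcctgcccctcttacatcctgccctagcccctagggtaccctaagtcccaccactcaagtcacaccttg
Dlgap1 (chr9:117613834-117614133): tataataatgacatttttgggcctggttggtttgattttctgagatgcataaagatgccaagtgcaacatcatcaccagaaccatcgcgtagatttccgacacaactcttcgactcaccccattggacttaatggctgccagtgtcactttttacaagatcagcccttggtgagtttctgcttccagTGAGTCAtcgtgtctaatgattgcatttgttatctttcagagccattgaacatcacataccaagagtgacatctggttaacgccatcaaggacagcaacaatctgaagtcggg
Both strands were searched for 5 motifs of factors that respond to neuronal activity or are common in promoters. These were the cAMP response element TGACGTCA, its part TGACG, the AP-1 site TGANTCA, the GC box GGGCGG and the EGR site GCGTGGGCG, and the second is contained in the first. In all 33469 windows of this length they occurred in 1.83%, 21.2%, 7.33%, 33.1% and 0.544%, respectively. Among the windows of these genes the search gave 1 AP-1 match, in the first Dlgap1 window, and none in the other windows. The windows differed in base composition, with a GC content of 68.7% for Dlg4, 56.3% for Shank3, and 43.3% and 39.0% for the starts of Dlgap1, beside a median of 51.7% over all windows.

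Some counts may be shared with overlapping genes, since no source used here gives the strand setting of the counting. In the RefSeq annotation C1h19orf81 overlaps Shank1 and reached 122.6 CPM in the libraries, and Acr overlaps Shank3 and reached 0.966 CPM.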

How the data were processed

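RNA was sequenced from 18 libraries of primary rat neuroglial cultures. The deposited values are expected counts, that is estimated counts of reads per gene. The paper's methods state that the authors used Trimmomatic and Cutadapt for trimming, Salmon for quantification against Ensembl rat transcripts (rn6, per the labels) and tximport for the sums per gene. The paper and the labels name different sequencing instruments. Files were taken by the group and replicate number in the labels.

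Expected counts were rounded, treated as counts and tested with edgeR 4.0.16 in R 4.3.3. filterByExpr (minimum count 10, minimum total 15) kept 14398 of 31463 genes. After TMM scaling, all 18 libraries entered 1 fit with a mean for each group, and the two-sided quasi-likelihood F test was adjusted by Benjamini-Hochberg over all genes tested. A gene was called at an adjusted p below 0.05. SE were derived from the F statistic. Log2 CPM used a prior count of 2. Scripts were tested on simulated data, with a pass required only at a dispersion below that of these data. That test gives no measure of the power of the comparisons. Depth per library ranged from 8409574 to 17206354 counts.

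The 7 genes, the lists of 30 scaffolds, 23 partners and cell type markers, and the tests were chosen with earlier results of these data known. Named were the 7 genes, the 3 genes of smallest p in each list, and the 3 genes of highest Pearson r with Dlg4 and with the mean z score of the 7. Some genes that this rule takes are not reported here. Alternatives were the likelihood-ratio test of edgeR, DESeq2 1.42.0, relative log expression (RLE) normalization, no filter, removal of rRNA rows, a covariate for the log2 rRNA share, a block for the replicate number, a fit of only the groups compared, and each library left out in turn. The pair of Control 1 and Memantine 3 was left out as an alternative added after seeing the data.

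Replicate numbers were taken to pair libraries where the deviations from group means of each same-numbered pair correlated above 0.1. This held for Memantine, Glutamate_secret and Glutamate_BPC against Glutamate and for Glutamate_vesicles against Control (r from 0.21 to 0.89). It did not hold for the other 5 comparisons, where number 3 gave r from -0.45 to 0.005. Promoter windows came from a RefSeq table (GRCr8).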

Additional observations from a re-analysis of the deposited data

How the results depend on the processing

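Of 945 log2 differences recomputed for the 7 genes under the alternatives, 874 kept their direction and their side of the threshold, 14 gained a call and 57 changed sign. None of the sign changes concerned Glutamate or a preparation against Control. For Memantine against Glutamate, the log2 differences of Dlg3, Shank3 took either sign as single libraries were left out (Dlg3 -1.31 to 2.58, Shank3 -1.07 to 1.66). The sign also turned with the rRNA covariate (Shank3 -0.50). For Glutamate_vesicles against Glutamate, the log2 differences of Dlg2, Dlg3, Dlg4, Shank1, Shank2, Shank3 took either sign as single libraries were left out (Dlg2 -0.39 to 0.46, Dlg3 -0.21 to 1.31, Dlg4 -0.0434 to 0.63, Shank1 -0.39 to 0.40, Shank2 -0.49 to 0.55, Shank3 -0.53 to 1.15). The sign also turned with the replicate block (Dlg2 0.0541) and with the rRNA covariate (Dlg3 -0.49, Dlg4 -0.20, Shank1 -0.41, Shank2 -0.36, Shank3 -0.72). For Glutamate_secret against Glutamate, the log2 differences of Dlg2, Dlg3, Dlg4, Shank2, Shank3 took either sign as single libraries were left out (Dlg2 -0.21 to 0.63, Dlg3 -1.43 to 0.75, Dlg4 -0.66 to 0.0722, Shank2 -0.54 to 0.34, Shank3 -1.89 to 0.47). For Glutamate_BPC against Glutamate, the log2 differences of Dlg2, Dlg3, Dlg4, Shank3, Dlgap1 took either sign as single libraries were left out (Dlg2 -0.73 to 0.21, Dlg3 -0.96 to 0.45, Dlg4 -0.12 to 0.31, Shank3 -0.998 to 0.24, Dlgap1 -0.11 to 0.16). The sign also turned with the replicate block (Dlgap1 -0.0111). For Memantine against Control, the log2 differences of Dlg2, Dlg3, Dlg4, Shank1, Shank2, Shank3 took either sign as single libraries were left out (Dlg2 -1.29 to 1.77, Dlg3 -2.91 to 0.51, Dlg4 -1.16 to 0.15, Shank1 -0.46 to 1.03, Shank2 -0.79 to 1.08, Shank3 -2.07 to 0.27). The sign also turned with DESeq2 (Dlg3 0.0398) and with RLE normalization (Dlg3 0.0363) and with Control 1 and Memantine 3 left out (Dlg3 0.0693, Dlgap1 0.28). Calls at an adjusted p below 0.05 were 0 for Glutamate against Control, for each preparation against Glutamate, for Memantine against Control and for Glutamate_BPC against Control under every alternative. For Memantine against Glutamate they were 0 to 1 with single libraries left out, and 3 without Control 1 and Memantine 3. For Glutamate_vesicles against Control there was 1 call with DESeq2 and 1 with the block. For Glutamate_secret against Control there was 1 with DESeq2, 3 with the rRNA covariate and 1 without Control 1 and Memantine 3. Across the 6 groups the likelihood-ratio test gave 3, DESeq2 4, the rRNA covariate 1 and the omission of both libraries 4. The 5 calls by replicate number became 0 with the rRNA covariate. Genes with an unadjusted p below 0.05 in Glutamate against Control were 1 to 4 with single libraries left out. The number also differed with the likelihood-ratio test, DESeq2, only the groups compared, the rRNA covariate and both libraries left out. In Memantine against Glutamate they were 0 to 5 with single libraries left out. The number also differed with only the groups compared and without both libraries. Counts of these other fits are left out, because the share of all genes at this level was not taken for them. The cause of these changes was not tested. A count without the share of all genes beside it is not read as a result about the 7 genes. With the replicate number as a block, 3 genes were called for Glutamate_secret against Control, as were 4.86% of all genes (Dlg4 adjusted p = 0.0388, Shank1 0.0265, Dlgap1 0.032) and 2 across the 6 groups, with 3.45% of all genes (Shank1 0.031, Shank2 0.0303). These numbers do not pair all of those libraries. With the block, 6 genes had an unadjusted p below 0.05 in Glutamate against Control, where 2134 of all 14398 genes did in either direction. Across the 6 groups 7 genes did, and the share of all genes is not given here. Apart from Dlgap1 in Glutamate_vesicles against Control, the block changed no other call. Low counts, such as 5 for Dlg2 in Control 1, limit the precision of single values.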
